A study of Mus musculus with 4 samples.

Results

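The genes described here encode the chains of the collagens, the laminins and the nidogens, the main structural proteins of the extracellular matrix. They were taken by name from each gene table: every collagen chain gene (symbols of the form Col, a number, a and a number), every laminin alpha, beta and gamma chain gene, and Nid1 and Nid2. There were 54 such rows of 35604 in each table. Of these, 52 had status OK in the culture table and 51 in the tumour table, and 30 and 37 were measured, meaning at least 1 FPKM (fragments per kilobase of transcript, scaled to the mapped fragments of the library) in either library. In culture, 15 of the others were listed at 0 in both libraries, 7 lay above 0 but under 1 FPKM in both, and 2 (Col20a1 and Col4a5) had a failed estimate. In tumours, 4 were listed at 0 in both, 10 lay under 1 FPKM in both and 3 (Col11a1, Col13a1 and Col17a1) were marked as having too few data. Just inside the minimum were Col24a1 in culture (highest level 1.24 FPKM) and Lama3 in tumours (1.34 FPKM), and just outside it was Col10a1, at 0.421 and 0.533 FPKM.

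RNA was sequenced from ESC-FC1801, a single line of mouse embryonic Schwann cells on the FVB/N background, Nf2 Flox/Flox and made NF2-/- in vitro with Ad-Cre, so that the cells of every group carry this deletion. Culture was in serum-free N2 medium with neuregulin and forskolin. The 4 groups had 1 library each: cells with DMSO for 24 h, cells with 1 µM NXD30001 (an HSP90 inhibitor by the series title) for 24 h, and allograft tumours of ESC-FC1801 from mice dosed with vehicle or with NXD30001 at 100 mg/kg, over 4 weeks with 3 doses in each. A tumour piece can hold host cells beside the grafted ones, and the labels do not give the host strain. The sample-type label calls all 4 samples cultured cells, and titles and treatments were followed instead. Since each group is a single library, nothing here carries an error between replicates and no test was run, so "higher" and "lower" speak of the sequenced libraries alone. Differences are treated minus untreated values of log2(FPKM + 1), which shrinks those of scarce transcripts, and 2-fold is counted on that scale. An "implied error" is the error on a log2 ratio that follows from the fold and statistic in the authors' deposited table, and it holds no biological spread. FPKM carries no depth, but genes with the error of 1 fragment in each library put the treated libraries at 1.05 (culture, 40 genes) and 1.19 (tumours, 56 genes) times the depth of the untreated ones. Implied errors at 30 to 100 FPKM had a median of 0.69 in culture and 0.30 in tumours.

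Schwann cell identity was checked first. In the order DMSO, NXD30001, vehicle tumour and treated tumour, the glial transcription factor gene Sox10 was at 8.42, 4.40, 47.0 and 139.8 FPKM. S100b, a common Schwann cell marker, was under 1 FPKM in all 4 libraries, at 0.563, 0.0538, 0.305 and 0 FPKM. In cultured cells the summed level of 8 fibroblast markers was only 3.18 and 0.487 FPKM, with 3 of them at 0 with DMSO and 7 with NXD30001, so that Pdgfra (2.46 and 0.487 FPKM) made up most of it. The 9 endothelial markers summed to 0.154 and 2.20 FPKM there, with Cdh5, Emcn, Sox18 and Tie1 at 0 in both libraries. Nearly all of the treated sum was Tek, at 0.0324 and 2.18 FPKM and called higher in the authors' deposited table, and the other 8 were each under 0.1 FPKM.

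As background, fibrillar collagens (types I, II, III, V, XI, XXIV and XXVII) assemble into the rope-like fibrils of connective tissue. Basement membranes are thin sheets built from networks of type IV collagen and of laminin, each laminin being a trimer of an alpha, a beta and a gamma chain, and nidogens link the networks. Schwann cells in nerve make a basement membrane of their own, with laminin alpha-2 as a characteristic chain, and need it to sort and myelinate axons. FACIT collagens (types IX, XII, XIV, XVI and XX) sit on fibril surfaces, and type VI collagen forms beaded microfibrils.

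Upstream stretches are printed for the genes on which the results turn most: Col3a1, the fibrillar chain with the largest lower difference in culture, Nid1, the most abundant basement membrane chain there, and Lama2, the basement membrane chain with the largest difference in tumours. Bases are from RefSeq (GRCm38.p6), 5′ to 3′ on the gene's strand, and the stretch with no annotated exon of GENCODE M21 within the 250 bases before the start is given. Capitals mark matches on either strand, so that CATTCC and ATTGG are GGAATG and CCAAT on the other strand. The motifs searched were the CCAAT box, the TATA box spelled TATAAA, the heat shock element core spelled GAANNTTC (or TTCNNGAA) and the TEAD core spelled GGAATG.
Col3a1, chr1:45311288-45311537, plus strand: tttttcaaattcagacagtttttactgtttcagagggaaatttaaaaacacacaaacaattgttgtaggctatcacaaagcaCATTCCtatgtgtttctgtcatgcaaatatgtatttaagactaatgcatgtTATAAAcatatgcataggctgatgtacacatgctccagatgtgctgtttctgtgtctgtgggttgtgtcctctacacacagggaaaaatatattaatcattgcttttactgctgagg
Nid1, chr13:13437352-13437550, plus strand: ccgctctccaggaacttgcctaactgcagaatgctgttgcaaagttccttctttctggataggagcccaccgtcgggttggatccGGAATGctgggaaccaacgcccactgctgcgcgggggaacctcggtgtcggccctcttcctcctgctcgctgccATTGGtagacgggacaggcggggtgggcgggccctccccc
Lama2, chr10:27616943-27617192, minus strand: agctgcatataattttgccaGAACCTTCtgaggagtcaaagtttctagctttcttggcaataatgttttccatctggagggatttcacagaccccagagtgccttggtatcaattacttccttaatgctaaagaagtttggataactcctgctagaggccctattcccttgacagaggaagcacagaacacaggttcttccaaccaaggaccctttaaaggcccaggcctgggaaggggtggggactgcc
Col4a1 and Col4a2, shared bases chr8:11312805-11312826, plus strand: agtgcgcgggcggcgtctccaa

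The last line is shown because Col4a1 and Col4a2 lie head to head. RefSeq starts Col4a1 on the minus strand at 11312826 and Col4a2 on the plus strand at 11312805, so the transcripts overlap in these 22 bases and the genes share a promoter region. The stretches before Col3a1 and Lama2 held 35.2% and 47.2% G and C, and the stretch before Nid1 63.8%. Col3a1 held a TATAAA and a GGAATG match, Nid1 a CCAAT and a GGAATG match, and Lama2 a heat shock core. Over the 300-base windows (250 before and 50 after the start) of all 32851 RefSeq promoters, 37.4% held CCAAT, 13.6% TATAAA, 15.1% a heat shock core and 14.7% GGAATG. Windows were found for 28 of the 38 chains measured in either table, not among them Col1a1. Of 8 fibrillar chains with a window, 3 held CCAAT, 2 TATAAA, none a heat shock core and 1 GGAATG, and of 9 basement membrane chains 5 held CCAAT, none TATAAA, 2 (Col4a5 and Lama2) a heat shock core and 2 GGAATG. A match describes letters in a window and shows no binding.

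In cultured cells the fibrillar chains divided under NXD30001. Col3a1 (ENSMUSG00000026043, mm9 chr1:45368383-45406551), which encodes type III collagen of pliable tissues, was at 653 FPKM in DMSO cells and 187 FPKM in treated cells, differing by -1.80 (implied error 0.48). Col11a1 (ENSMUSG00000027966, chr3:113733458-113923636), a type XI chain that sets fibril diameter in cartilage, went the other way, at 28.8 and 117 FPKM, 4.05-fold higher, with a difference of 1.98 (implied error 0.54). Both were called in the authors' deposited table, and no other fibrillar chain was.

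Type I collagen, the commonest fibril former, is built from products of Col1a1 and Col1a2. Col1a1 (ENSMUSG00000001506, chr11:94797538-94814356) was at 346 FPKM in DMSO cells and 711 FPKM in treated cells, 2.05-fold higher, but its implied error of 1.51 is larger than its difference of 1.04. Col1a2 (ENSMUSG00000029661, chr6:4454814-4491543) was at 293 and 231 FPKM, a difference of -0.34. The ratio of Col1a1 to Col1a2 within a library went from 1.18 to 3.07, a log2 change of 1.38 that lies within the combined implied error of 1.69. The ratio of Col3a1 to Col1a1 went from 1.89 to 0.262, a log2 change of -2.84 against a combined implied error of 1.58. Col3a1 was thus the fibrillar chain with the most RNA in DMSO cells and Col1a1 that in treated cells.

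Type V collagen nucleates fibrils, and differences of its chains in culture were above 0 but uncalled. Col5a2 was at 74.1 and 132 FPKM (difference 0.82, implied error 0.48). Col5a1 was at 16.6 and 18.8 FPKM (0.17, implied error 0.72) and Col5a3 at 15.3 and 16.9 FPKM (0.14, implied error 0.63), differences well within their errors. Col27a1, of type XXVII, was at 6.61 and 3.71 FPKM, and Col24a1, of type XXIV, was listed at 0 in DMSO cells and at 1.24 FPKM after treatment. Of the 9 measured fibrillar chains, 3 (Col11a1, Col24a1 and Col1a1) were at least 2-fold higher, 1 (Col3a1) was at least 2-fold lower and 5 lay within 2-fold, with a median difference of 0.17. Over all 12676 measured culture genes 12.6% lay 2-fold or more above and 24.8% as far below, and their median was -0.25. Relative to that median the fibrillar median is 0.42.

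Basement membrane chains in culture mostly lay within 2-fold, and none was past it downward. Col4a2 (ENSMUSG00000031503), which encodes a chain of the common type IV trimer, was at 9.11 and 21.2 FPKM, 2.33-fold higher, differing by 1.14 (implied error 0.75). Its partner Col4a1 (ENSMUSG00000031502) was at 11.2 and 16.0 FPKM, differing by 0.48 (implied error 0.76). The table gives both genes 1 locus, mm9 chr8:11187755-11449287, so reads where they overlap are not assigned with certainty. Lamb2, a beta chain of mature neuromuscular and kidney basement membranes, was at 1.34 and 3.15 FPKM.

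The laminin chains with most RNA in culture were Lama4, Lama2, Lamb1-1 and Lamc1. Lama2 (ENSMUSG00000019899, chr10:26701094-27336748), the laminin alpha chain lost in a congenital muscular dystrophy with neuropathy, was at 89.9 FPKM in DMSO cells and 165 FPKM in treated cells, differing by 0.87 (implied error 0.60). Lama4, an alpha chain of vessel and nerve basement membranes, was at 104 and 75.9 FPKM, differing by -0.44 (implied error 0.69). Within the laminin alpha RNA of a library, Lama2 thus held 45.3% with DMSO and 66.8% with NXD30001, and Lama4 52.2% and 30.7%. The log2 change of the ratio of Lama2 to Lama4 was 1.33, against a combined implied error of 0.91. Lama5, a widespread alpha chain, was at 5.03 and 6.11 FPKM. Lamb1-1, the common beta chain, was at 131 and 97.7 FPKM, and Lamc1, the common gamma chain, at 119 and 131 FPKM.

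Nid1 (ENSMUSG00000005397, chr13:13529958-13604521), which encodes nidogen-1, had the highest level of all measured chains in DMSO cells, at 837 FPKM, and was at 512 FPKM with NXD30001. Its difference of -0.71 was called in the authors' deposited table on an implied error of 0.05, against a median of 0.69 for culture genes from 300 to 1000 FPKM. Nid2, its paralogue, was at 66.2 and 97.5 FPKM, a difference of 0.55. The ratio of Nid1 to Nid2 went from 12.6 to 5.25. Of the 11 measured basement membrane chains 2 were at least 2-fold higher, Col4a2 among them, and none 2-fold lower, with a median of 0.48, which is 0.73 relative to all measured genes. The medians of the classes differ by 0.31, less than the median implied error of a single chain in either class (0.68 fibrillar, 0.72 basement membrane). Without chains whose locus is shared with another gene the difference of medians was -0.53, the opposite direction.

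**Figure D1:**
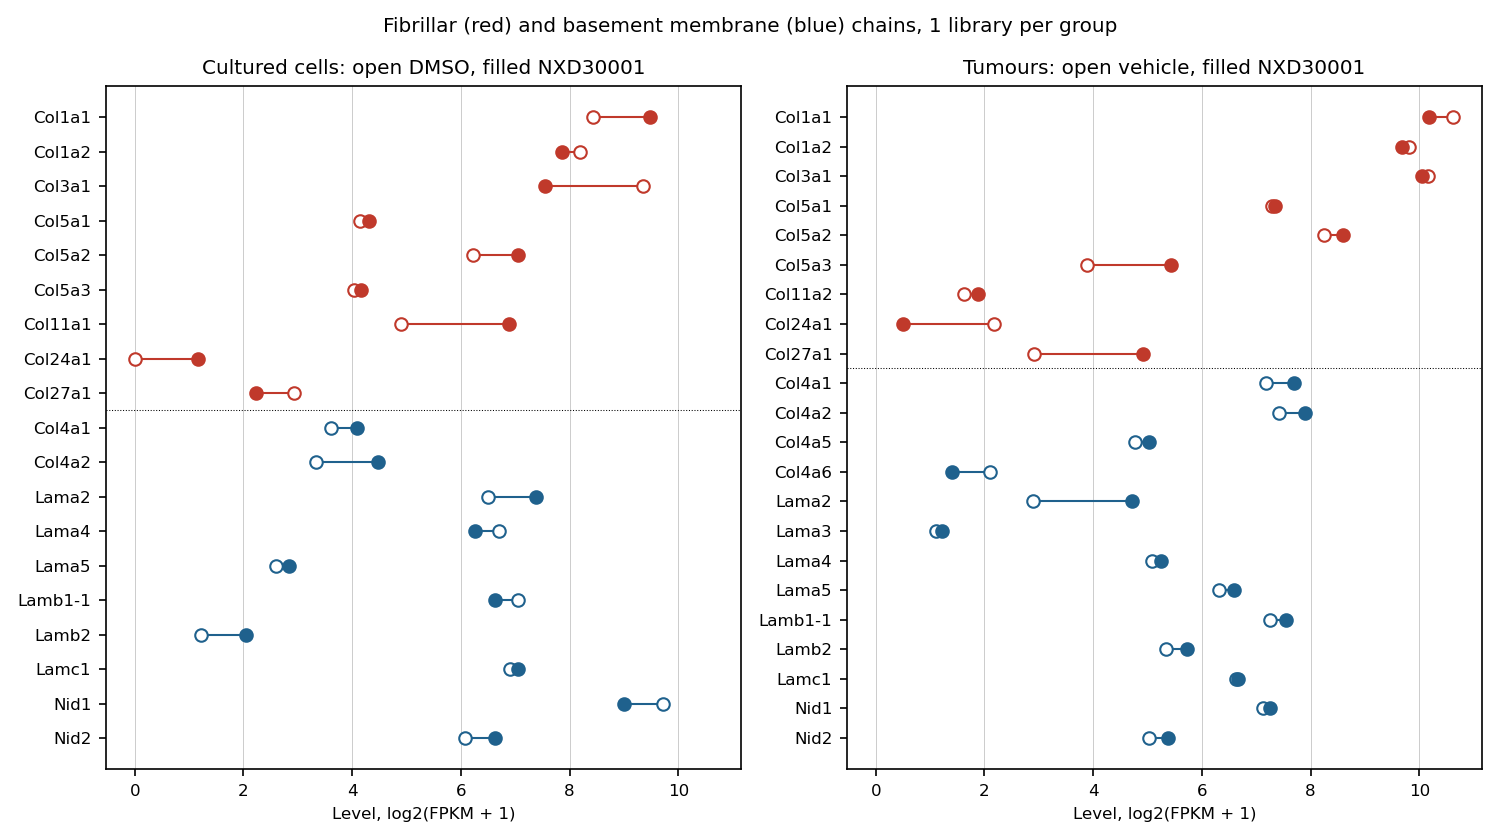
Levels of measured fibrillar (red) and basement membrane (blue) chains as log2(FPKM + 1), in culture (left) and tumours (right), with 1 library per point, open for untreated and filled for NXD30001. Col3a1 and Col11a1 move furthest among the fibrillar chains above 5 FPKM in culture and go opposite ways, and in tumours Lama2, Col27a1 and Col5a3 move furthest to the right.

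Several of the remaining collagens of cultured cells differed widely, at low levels. Col14a1, a FACIT gene of fibril surfaces, was at 4.59 and 34.3 FPKM, 7.46-fold higher, with a difference of 2.66 (implied error 0.52). Col12a1, its close relative, was at 0.525 and 5.16 FPKM. Lower were Col9a3, a chain of cartilage type IX collagen, at 4.83 and 0.665 FPKM, and Col16a1 at 2.91 and 0.381 FPKM. All 4 FACIT chains measured were called in the authors' deposited table, 2 in each direction.

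Type VI collagen needs products of Col6a1, Col6a2 and Col6a3 in 1 molecule, and these genes did not move together in culture. Col6a2 was at 3.23 and 0.162 FPKM (difference -1.86, implied error 0.79) and Col6a1 at 2.88 and 0.637 FPKM, while Col6a3 was at 0.557 and 2.33 FPKM. The locus of Col6a1 is also given for a clone-named gene whose levels are nearly the same (2.92 and 0.638 FPKM), so its reads may be counted for both. In tumours that gene was at 139 and 156 FPKM. Col28a1 (ENSMUSG00000068794, chr6:7947808-8142617), a small collagen known around Schwann cells of mouse peripheral nerve, was at 5.41 and 0.201 FPKM, 26.9-fold lower. Its difference of log2(FPKM + 1) was -2.42, shrunk by the pseudocount, and the implied error of its log2 ratio was 0.82. Col8a1, a short-chain collagen of vessel walls and the cornea, was high in both libraries at 279.7 and 231 FPKM, and Col15a1, of the basement membrane zone, was at 6.06 and 6.89 FPKM.

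Of all 30 chains measured in culture, 8 (26.7%) were at least 2-fold higher, where 12.6% of all measured genes were, and 6 (20%) at least 2-fold lower, where 24.8% were. The authors' deposited table called 5 of the 30 higher, against 2.75% of all measured genes, and 6 lower, against 7.14%, or 36.7% in all against 9.89%. Past 2-fold in either direction were 46.7%, against 37.5%, and 18 of the 30 lay above 0, against 40.6%. With a pseudocount of 5 only 3 chains were 2-fold higher and 2 lower. Schwann markers moved beside these chains: of 8 measured, 4 were at least 2-fold lower and 1 at least 2-fold higher, and the summed level of the list went from 205 to 559 FPKM. The part of this in the collagen and laminin values was not tested.

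**Figure D2:**
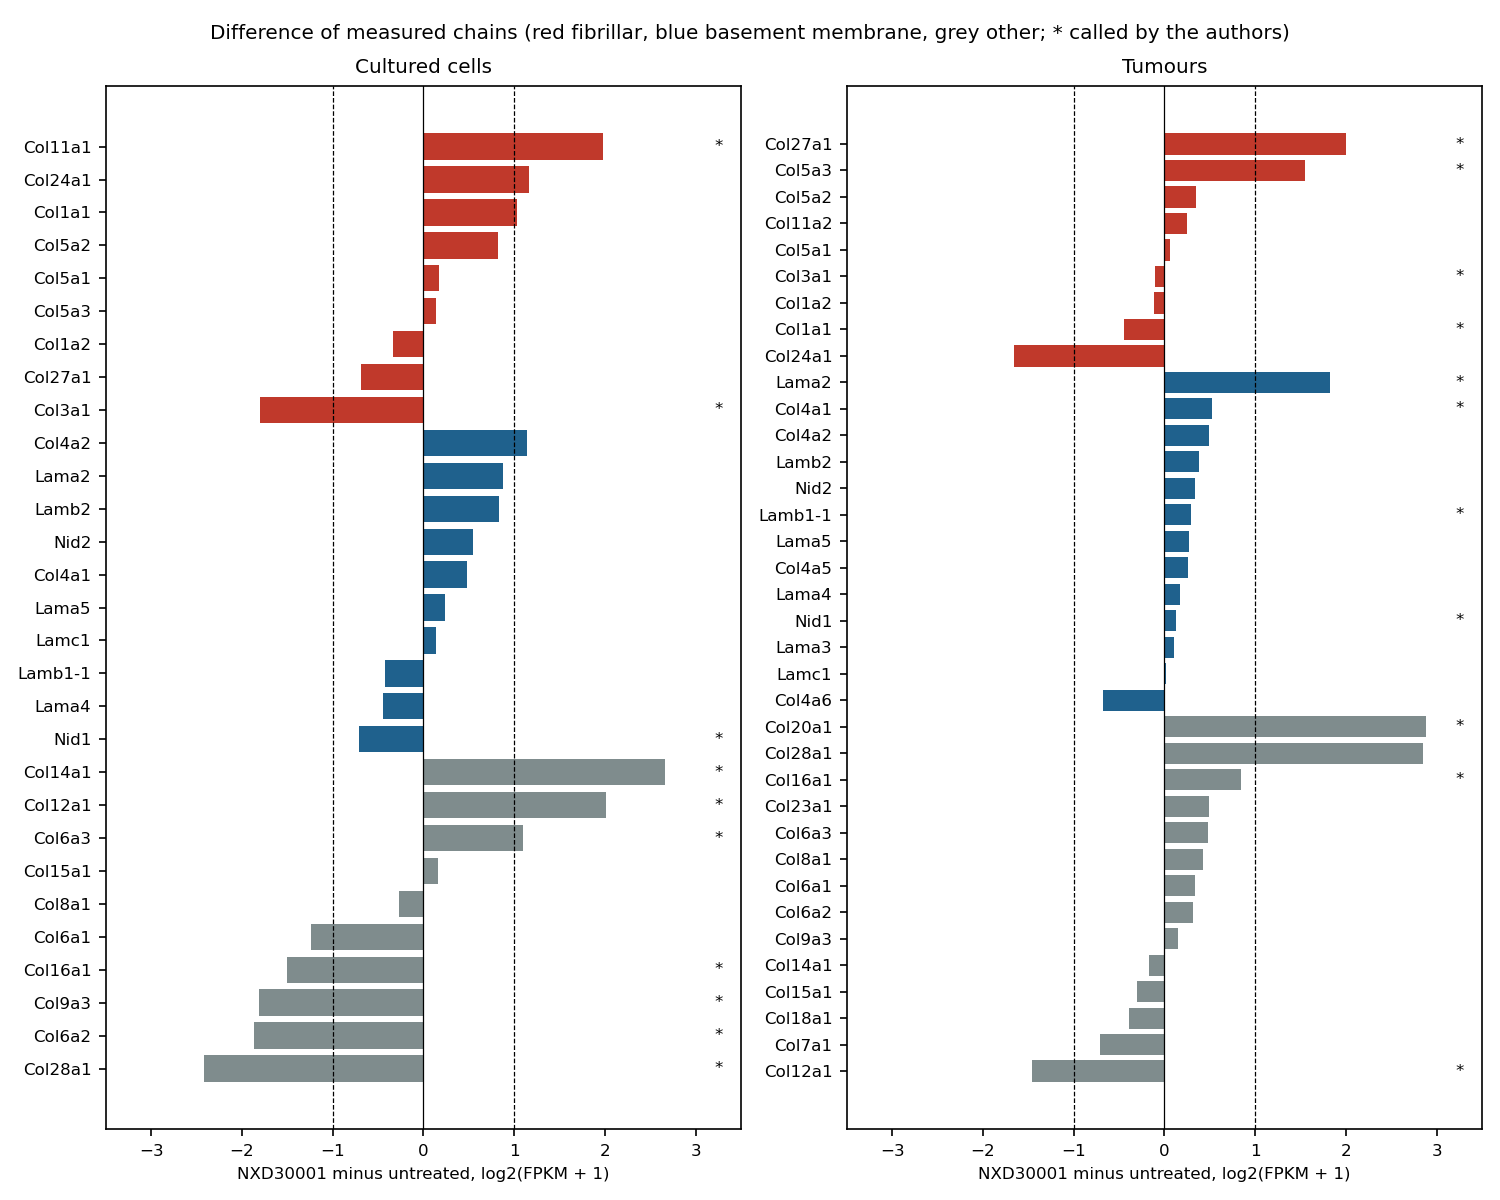
Difference between the NXD30001 and the untreated library, as log2(FPKM + 1), for 29 chains measured in culture (left) and 36 in tumours (right). Bars are red for fibrillar, blue for basement membrane and grey for other chains, dashed lines mark 2-fold, and asterisks mark calls in the authors' deposited table. In tumours 12 of the 13 blue bars point to the right.

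In tumours the basement membrane chains were nearly all slightly higher in the treated library, and Lama2 stood out. Lama2 was at 6.41 FPKM in the vehicle tumour and 25.3 FPKM in the treated one, 3.94-fold higher, differing by 1.83 (implied error 0.24), a call in the authors' deposited table. Its locus is also given for a small nucleolar RNA listed at 0 in both tumours. The other 13 chains lay within 2-fold. Of the 14, 13 were above 0, where 47.3% of all 15550 measured tumour genes and 27 of all 37 measured chains (73%) were. Their median difference was 0.28, against -0.03 for all measured genes. The median implied error of these chains was also 0.28, and 4 of the 14 were called higher in the authors' deposited table.

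In tumours the laminin chains together held 412 and 502 FPKM and type IV collagen 343 and 479 FPKM. Col4a1 was at 144 and 207 FPKM and Col4a2 at 169 and 238 FPKM, differences of 0.53 and 0.49, so their ratio stayed at 0.849 and 0.871. Col4a5, which pairs with Col4a6 or with kidney-type chains, was at 26.1 and 31.4 FPKM. Col4a6 was the only basement membrane chain measured at a lower level, at 3.27 and 1.66 FPKM, differing by -0.68 (implied error 0.43) with no call.

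Lama5 had the most RNA of the laminin alpha chains in tumours, at 79.0 FPKM in the vehicle tumour and 95.5 FPKM in the treated one, followed by Lama4 at 32.8 and 37.0 FPKM. The share of Lama2 in laminin alpha RNA was 5.36% with vehicle and 15.9% with NXD30001, and that of Lama5 66.2% and 60.0%. The log2 change of the ratio of Lama2 to Lama4 was 1.81, against a combined implied error of 0.39. Lamb1-1 was at 152 and 186 FPKM, Lamb2 at 39.6 and 52.0 FPKM and Lamc1 at 98.3 and 99.8 FPKM. The epithelial chain Lama3 was near the minimum, at 1.17 and 1.34 FPKM. Nid1 was at 139 and 152 FPKM and Nid2 at 31.8 and 40.5 FPKM. The authors' deposited table called Col4a1, Lamb1-1 and Nid1 higher as well, on implied errors of 0.05, 0.03 and 0.03, where the median tumour gene of 100 to 300 FPKM has 0.30.

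The type I and III chains, the most abundant fibrillar chains of the tumours, were slightly lower with treatment. Of the type V chains only Col5a3, given below, was called higher. Col1a1 was at 1576 and 1155 FPKM, differing by -0.45 (implied error 0.10), Col3a1 at 1141 and 1063 FPKM and Col1a2 at 892 and 823 FPKM. The authors' deposited table called the first and second of these lower, the call of Col3a1 resting on -0.10 with an error of only 0.01. The ratio of Col1a1 to Col1a2 was 1.77 with vehicle and 1.40 with NXD30001, and that of Col3a1 to Col1a1 was 0.724 and 0.920. Col5a2 was at 301 and 384 FPKM, a difference of 0.35 (implied error 0.34). Col5a1 was at 155 and 162 FPKM, a difference of 0.06 (implied error 0.08), and neither was called.

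Scarcer fibrillar chains differed more. Col27a1 (ENSMUSG00000045672, chr4:62875038-62996025), whose product is laid down in developing cartilage, was at 6.53 and 29.1 FPKM, 4.46-fold higher, with a difference of 2.00 (implied error 0.24). Col5a3 (ENSMUSG00000004098, chr9:20574494-20619511), the third type V chain, was at 13.8 and 42.4 FPKM, 3.07-fold higher, with a difference of 1.55 (implied error 0.30). Both were called in the authors' deposited table, and each has a locus that is also given for a small RNA listed at 0 in both tumours. Col24a1 was at 3.49 and 0.419 FPKM, differing by -1.66 (implied error 1.17) with no call, and Col11a2 at 2.10 and 2.69 FPKM. Of 9 fibrillar chains 5 were above 0 and 4 below, with a median of 0.06. The medians of the classes differ by 0.22 in tumours. That is less than the median implied error of a single chain in either class (0.24 fibrillar, 0.28 basement membrane).

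Among the other tumour chains, Col20a1 and Col28a1 had the largest differences. Col20a1 (ENSMUSG00000016356, chr2:180719013-180752245), a FACIT gene, was at 9.87 and 79.1 FPKM, 8.02-fold higher, with a difference of 2.88 (implied error 0.27). Its locus is shared with a RIKEN clone gene (1.30 and 6.59 FPKM). Col28a1 was at 0.539 and 10.1 FPKM, but an implied error of 10.5 leaves it uncalled. Col16a1, the FACIT chain with most RNA, was at 308 and 555 FPKM and was called higher, and Col12a1 was at 102 and 36.3 FPKM and called lower. The type VI genes Col6a1, Col6a2 and Col6a3 were all higher, with differences of 0.34, 0.31 and 0.48. Their implied errors were 0.28, 0.32 and 0.23, and none was called. Col6a1 was at 42.6 and 54.1 FPKM, below the clone-named gene given the same locus (139 and 156 FPKM). The basement membrane zone collagens Col15a1 (64.1 and 51.6 FPKM) and Col18a1 (119 and 90.6 FPKM) were lower, as was Col7a1, which forms anchoring fibrils in skin, at 14.4 and 8.39 FPKM. Differences of these 3 lay from -0.71 to -0.31. The locus of Col18a1 is also given for Slc19a1, at 40.3 and 23.4 FPKM. Col14a1, Col8a1, Col9a3 and Col23a1 lay between -0.16 and 0.49.

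Of the 37 chains measured in tumours, 5 (13.5%) were at least 2-fold higher, where 7.32% of all measured genes were, and 2 (5.41%) at least 2-fold lower, where 6.93% were. Past 2-fold in either direction were 18.9%, against 14.3%, and 27 of the 37 lay above 0, against 47.3%. Without chains of a shared locus, which leaves out Lama2, Col5a3, Col27a1 and Col20a1, 1 chain was 2-fold higher and 1 lower. The authors' deposited table called 8 higher, against 3.14% of all measured genes, and 3 lower, against 2.45%, or 29.7% in all against 5.59%. Among these calls, Col1a1, Col3a1, Col4a1, Lamb1-1 and Nid1 lay within 2-fold, on implied errors from 0.01 to 0.10. The measured chains had a median of 42.6 FPKM in the vehicle tumour, against 16.2 FPKM for all measured genes. The part of level in the share of calls was not tested. Cell type markers moved beside the values of these chains. All 9 measured Schwann markers were at least 2-fold higher, their list summing to 155 FPKM in the vehicle tumour and 549 FPKM in the treated one, with S100b at 0 in the treated tumour. All 9 endothelial markers were lower, summing to 94.7 and 40.1 FPKM, and 6 of them by at least 2-fold. Of 8 fibroblast markers 5 were higher and 3 lower, the sum going from 528 to 328 FPKM through Dcn (345 and 190.1 FPKM) and Pdgfra (142 and 81.5 FPKM). Of 5 mural cell markers measured, 1 was higher and 4 lower, with sums of 18.5 and 15.7 FPKM, and none of these 3 lists had a member at 0. All 5 macrophage markers were lower, with sums of 981 and 707 FPKM, Emr1 and Mrc1 being called lower in the authors' deposited table, and no member was at 0. Of 5 epithelial markers only Krt8 was measured, at 374 and 61.1 FPKM and called lower, with Krt14 and Epcam at 0 in both tumours and Krt5 at 0 with vehicle. Skeletal muscle markers summed to 5.83 and 25.3 FPKM, a rise that lay in Mylpf (3.31 and 22.9 FPKM), uncalled on an implied error of 2.09. Acta1 was at 2.51 and 2.43 FPKM, Ckm at 0 in both tumours and Myh4 at 0 and 0.00933 FPKM, and Tnnt3 had a failed estimate. Adipocyte markers summed to 3.55 and 1.32 FPKM. In bulk tissue fewer cells of a type cannot be told apart from less RNA per cell. The part of these shifts in the collagen and laminin values was not tested.

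Fibrillar and basement membrane RNA can be set against each other within each library, which needs no scaling between libraries. Fibrillar chains held 46.0% of the summed FPKM of all measured chains with DMSO and 50.1% with NXD30001, and basement membrane chains 44.1% and 39.9%. In tumours fibrillar chains held 68.8% with vehicle and 60.3% with NXD30001, and basement membrane chains 15.6% and 19.3%. The ratio of fibrillar to basement membrane FPKM was 1.04 and 1.26 in culture and 4.42 and 3.12 in tumours, so it was higher with treatment in culture and lower in tumours. Few genes set these sums. Nidogens made up 29.0% and 21.6% of all chain RNA in culture, nearly all of it Nid1, and 2.87% and 3.17% in tumours. The direction in culture rests on single chains. Without Col3a1 and Nid1 in both libraries the culture ratio was 1.46 and 2.00, and without Col1a1 and Nid1 it was 2.03 and 1.15, the opposite direction. Without Col1a1 and Col4a2 the tumour ratio was 3.33 and 2.68. Without chains of a shared locus the tumour ratio was 12.1 and 8.99. Type IV collagen held 0.651% and 1.32% in culture and 5.76% and 7.89% in tumours.

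**Figure D3:**
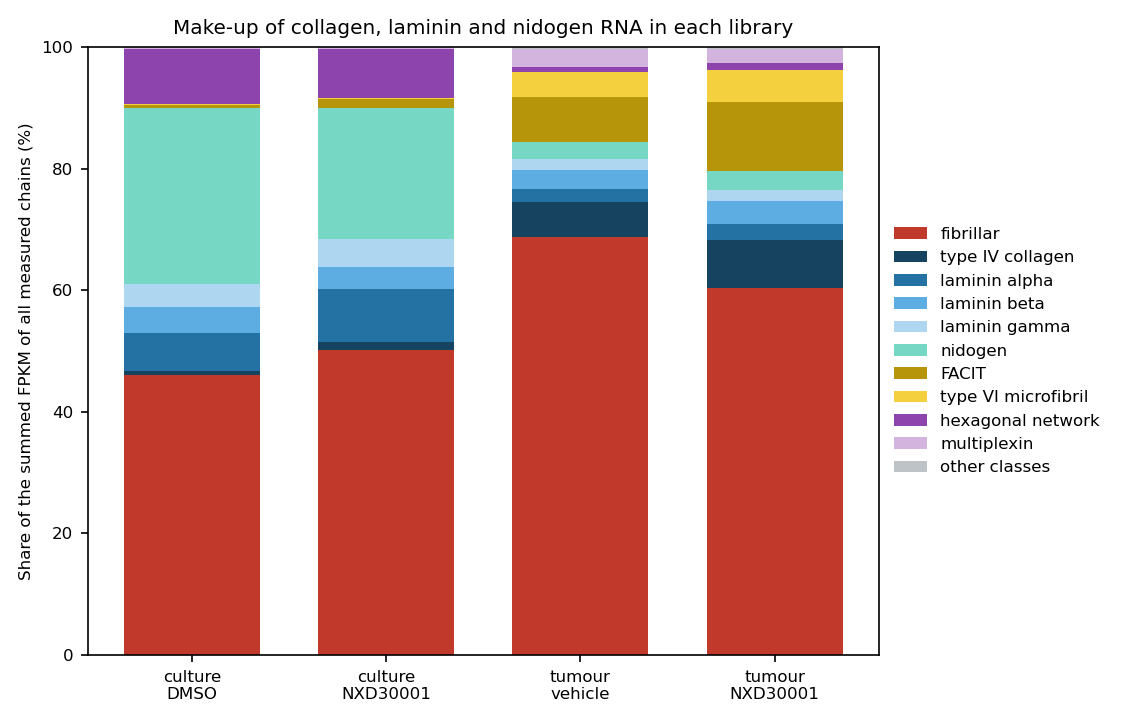
Share, in percent, of each class in the summed FPKM of all measured collagen, laminin and nidogen chains, 1 bar per library. Nidogens take 29.0% of the DMSO bar and 2.87% of the vehicle tumour bar, and the fibrillar share goes from 68.8% to 60.3% between the tumour libraries.

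The culture and tumour comparisons share no library, and 29 chains were measured in both. The 11 basement membrane chains measured in both were higher with NXD30001 in both for 8, lower in both for none and of opposite sign for 3 (Nid1, Lama4 and Lamb1-1, lower in culture only). Across these 11 chains Spearman's rho of the differences was 0.79 and Pearson's r 0.48, a description over genes that share libraries. Of 8 fibrillar chains 3 were higher in both, 2 lower in both and 3 of opposite sign, with a rho of -0.52. Over all 29 chains 12 were higher in both, 2 lower in both and 15 of opposite sign, with a rho of -0.19. Each table was made separately, and exposure was 24 h in one and 4 weeks in the other.

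**Figure D4:**
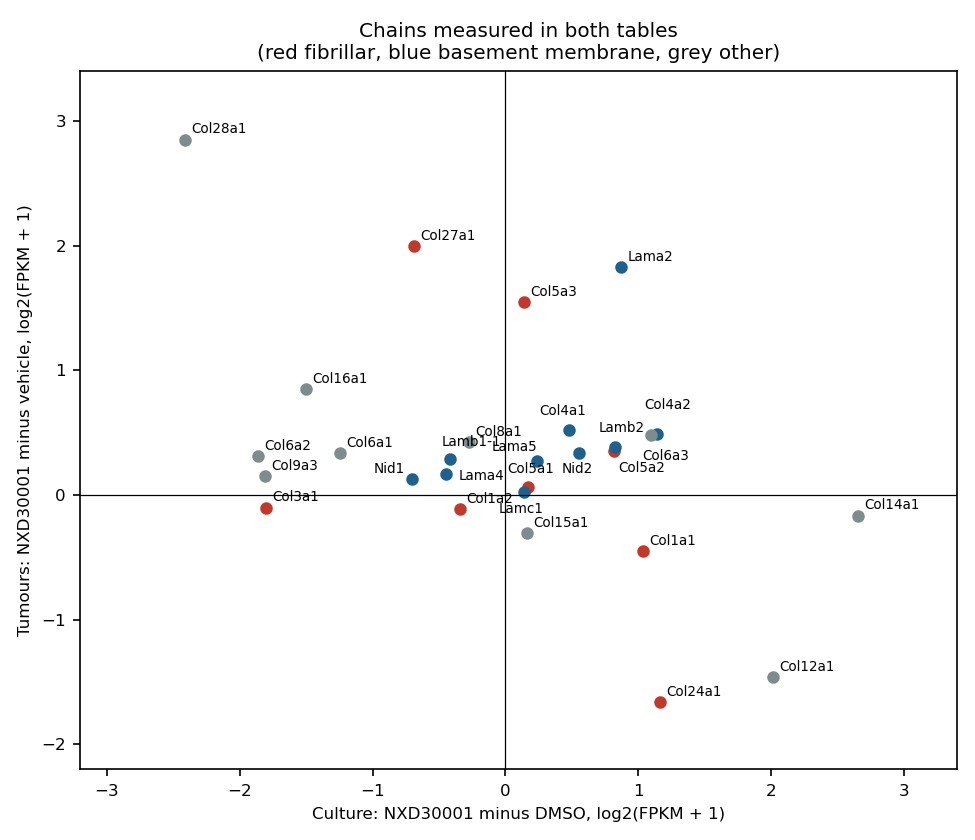
Difference in tumours (vertical) against difference in culture (horizontal), both as log2(FPKM + 1) of NXD30001 minus untreated, for 28 chains measured in both tables. The blue basement membrane chains plotted all lie at or above 0 in tumours, and Col28a1, Col12a1 and Col24a1 lie far out in the quadrants of opposite sign.

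Of 22 enzymes and chaperones of collagen synthesis measured in culture, 6 were past 2-fold upward, where 12.6% of all measured genes were, and 3 downward, where 24.8% were. Their median was 0.23, against -0.25 for all measured genes. Plod1, a lysyl hydroxylase gene, was at 63.1 and 14.7 FPKM, and P4ha2, a prolyl 4-hydroxylase subunit gene, at 81.5 and 20.4 FPKM, both called lower in the authors' deposited table. Lepre1, a prolyl 3-hydroxylase gene, was at 8.17 and 35.0 FPKM and called higher, and Tll1, a procollagen proteinase gene, was listed at 0 and at 4.71 FPKM. Serpinh1, the collagen chaperone HSP47 and a heat shock gene, named here after its values were seen, was at 46.1 and 136 FPKM, uncalled on an implied error of 0.73. In tumours none of 27 was 2-fold higher, where 7.32% of all measured genes were, and 1 was 2-fold lower, where 6.93% were, with a median of -0.14 against -0.03. The members that differed most there were Pcolce2, a procollagen processing enhancer gene, at 8.08 and 1.05 FPKM, P4ha3 at 2.58 and 0.898 FPKM, Leprel1 at 3.90 and 8.21 FPKM and Adamts14 at 32.4 and 61.2 FPKM. Serpinh1 was at 557 and 458 FPKM there, called lower in the authors' deposited table on -0.28 with an implied error of 0.03.

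Genes of laminin receptors were higher in the treated tumour for 6 of 6, where 47.3% of all measured genes were. Their median was 0.42 and none was 2-fold higher, where 7.32% of all measured genes were. Only Itga7 and Itga6 were called higher in the authors' deposited table. Implied errors of the uncalled ones ran from 0.22 (Itga3) to 1.12 (Bcam). Of the laminin-binding integrin alpha chains, Itga7 was at 23.2 and 44.5 FPKM and Itga6 at 43.9 and 74.1 FPKM, Itgb4 at 49.9 and 68.7 FPKM and Dag1, dystroglycan, at 82.3 and 107 FPKM. In culture 4 were measured, 1 of them past 2-fold upward (12.6% of all measured genes), with a median of 0.43. Of these Bcam was at 0.0894 and 4.22 FPKM, Itga3 at 0.516 and 1.32 FPKM, Itga6 at 194 and 229 FPKM and Dag1 at 80.1 and 74.4 FPKM. Of collagen receptors, the receptor kinase genes Ddr2 (16.9 and 46.1 FPKM) and Ddr1 (1.32 and 4.38 FPKM) were higher in treated culture, where Itga2 was at 4.66 and 0.0161 FPKM and Itga1 at 1.76 and 3.52 FPKM (5 measured, 2 at least 2-fold higher and 1 lower, against 12.6% and 24.8% of all measured genes, median 0.71). In tumours Ddr1 was at 25.7 and 67.6 FPKM and called higher, Ddr2 at 56.9 and 45.7 FPKM, Itga2 at 2.49 and 4.79 FPKM and Itga1 at 6.06 and 3.64 FPKM (5 measured, 1 at least 2-fold higher and none lower, against 7.32% and 6.93%, median -0.03).

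Other basement membrane proteins gave 2 members at least 2-fold higher and 5 lower of 11 in culture, against 12.6% and 24.8% of all measured genes (median -0.11). In tumours 2 of 10 were higher and none lower, against 7.32% and 6.93% (median 0.27). Npnt, an integrin ligand of basement membranes, was high with treatment in both, at 1.04 and 48.0 FPKM in culture and 8.08 and 44.3 FPKM in tumours. Ntn4, a netrin that binds laminin, was at 0.0201 and 9.74 FPKM in culture, and Agrn, agrin, was at 16.6 and 2.47 FPKM, and Smoc1 at 2.65 and 0.144 FPKM. In tumours Tinagl1 was at 22.6 and 92.5 FPKM, Hspg2, perlecan, at 311 and 607 FPKM and Fbln2 at 16.5 and 30.4 FPKM.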

How the data were processed

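Per the labels, RNA came from Trizol homogenates and library preparation was Illumina's. Tools listed in the submitters' processing notes, with no role given, are TopHat 1.2.0, Cufflinks 1.0.2, Cuffdiff and CASAVA, and the build is mm9. Strand handling is not stated there, and reads of overlapping genes are treated as uncertain. The authors deposited 1 gene table for culture and 1 for tumours, with a level in FPKM for each library. Per the file headers they also deposited the natural log fold, a test statistic and a q-value, scores that compare a pair of libraries and not the conditions. The q-values reached 2.05, and all calls had a q under 0.05. As each table was produced on its own, no level is compared across them. Starts of loci count from 0 in the tables, since end minus start equalled the GENCODE M21 gene length in 10580 of 19955 loci of a single gene and that length less 1 in 268, and 1 was added to each.

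Differences used a pseudocount of 1 FPKM and rows with status OK that reach 1 FPKM in a library. Genes past 2-fold were counted. The implied error is the natural log fold over the statistic, put on the log2 scale. No test was run with 1 library per group. Basement membrane chains are type IV collagens, laminins and nidogens. Fibrillar and basement membrane chains are named throughout, except that some genes counted in the classes and lists are not reported here by name or plotted, other chains where past 2-fold, called or highest of their class, some others for context, and of each other list the 4 with the largest difference. The members, classes and lists were chosen with earlier results of these data known. Python 3.11.15, pandas 2.3.3, numpy 2.4.6 and matplotlib 3.10.9 were used. Alternatives were the pseudocount, the minimum, scaling, shared loci and the class definitions.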

Additional observations from a re-analysis of the deposited data

Results flagged for a closer look

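Of the chains measured in both tables, 3 were past 2-fold in opposite directions with NXD30001. Col12a1 differed by 2.01 in culture and -1.46 in tumours, Col28a1 by -2.42 and 2.85, and Col24a1 by 1.17 and -1.66. The difference between culture and tumours was not tested, since each group has 1 library. Some of these levels are low: Col24a1 was listed at 0 with DMSO, and neither of its differences was called in the authors' deposited table. Col28a1 in tumours was at 0.539 and 10.1 FPKM, uncalled on an implied error of 10.5. Col12a1 was called in both comparisons, at 0.525 and 5.16 FPKM in culture and 102 and 36.3 FPKM in tumours (implied error 0.18). The part of low levels in the opposite directions was not tested.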

How the results depend on the processing

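No paired analysis was possible because each group has 1 library and no test was run. No measured chain changed the sign of its difference under the 7 settings tried for single chains. The culture median of all measured genes was -0.25, and upper quartile scaling moved culture differences by 0.22 and tumour differences by 0.02.

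Counts at low levels depended on the settings. In culture a pseudocount of 5 left 3 chains 2-fold higher and 2 lower, and a minimum of 5 FPKM left 5 and 2. Without rows of a shared locus 5 were 2-fold higher in culture, and in tumours 1 was higher and 1 lower. In tumours 1 chain was 2-fold lower with a pseudocount of 5 and 1 with a minimum of 5 FPKM. Without shared loci the culture median of fibrillar chains was 0.93 and the basement membrane minus fibrillar median was reversed at -0.53, from 0.31; it stayed above 0 under the other settings, down to 0.09 with a minimum of 5 FPKM. Leaving out shared loci removes Col5a1, Col5a3 and Col27a1 from the fibrillar chains. The ratio of fibrillar to basement membrane FPKM without shared loci was 1.98 in treated cells, 12.1 in the vehicle tumour and 8.99 in the treated tumour. The most abundant chains this leaves out are Lama2, Lamc1 and Lamb1-1 in treated cells, and Col4a2, Col4a1, Lamb1-1, Col5a1 and Lamc1 in tumours. As settings added after seeing the data, the culture ratio without Col3a1 and Nid1 was 2.00 in treated cells, and without Col1a1 and Nid1 2.03 in DMSO cells. Without the most abundant chain of each class in each library, which drops Col3a1 from DMSO and Col1a1 from treated cells, it was 1.46 and 1.15, so these libraries lose different chains. The tumour median of fibrillar chains (0.06) was -0.02 with no minimum level and -0.11 without shared loci. In tumours the difference of medians lay between 0.19 and 0.41. Depth limits the chains under 3 FPKM, where the median implied error was 1.00 in culture and 0.79 in tumours.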

Other observations

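Chains under the minimum level also carry information on the cell type. Col2a1, the main cartilage fibrillar collagen, was listed at 0 in both culture libraries and at 0.120 and 0 FPKM in tumours, and Lamb3, the epithelial laminin beta chain, was listed at 0 in all 4 libraries. Lama1, an early embryonic laminin alpha chain, was listed at 0 in culture and at 0.0209 and 0 FPKM in tumours. The kidney-type chains Col4a3 and Col4a4 were listed at 0 in culture and reached at most 0.208 FPKM in tumours. Col18a1 was called in the authors' deposited table in culture, with NXD30001 lower, although its levels were only 0.121 FPKM in DMSO cells and 0 in treated cells. Its locus is also given for Slc19a1, at 9.97 FPKM in DMSO cells and 0.0319 FPKM in treated cells.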
